A study of Mus musculus with 9 samples.

Results

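Ribosome biogenesis and RNA polymerase I are represented here by 40 genes, which encode nucleolar proteins that make, modify and assemble ribosomal RNA. Every probe set annotated to just 1 of these genes was taken, which gave 73 of the 22626 tested probe sets and 38 of the 40 genes. Of the 38 genes, 12 had 1 probe set, 18 had 2 and 8 had 3 or more. Dkc1 and Mrto4 had no probe set annotated to them alone and were not used. The cells were RAW 264.7, a macrophage line from mouse, and their total RNA was hybridised to 9 Affymetrix arrays: 3 of untreated cells, 3 of cells kept for 18 h with 100 ng/ml of lipopolysaccharide (LPS), a component of bacterial outer membranes, and 3 of cells labelled as constitutively overexpressing CstF-64, a subunit of the factor that helps cleave the 3' ends of mRNA precursors. All 3 groups are the same cell line, which grows continuously. The construct, its promoter, the number of clones and any control population with an empty construct are not stated in the sources used. Nor is it stated whether replicates were separate cultures, so the p-values measure the spread between these arrays, which may be technical.

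Ribosome production starts in the nucleolus, where RNA polymerase I transcribes the long precursor of the ribosomal RNAs. Small nucleolar ribonucleoproteins (snoRNPs) modify this precursor: those with box C/D RNAs place methyl groups on riboses and those with box H/ACA RNAs convert uridine to pseudouridine. Large sets of processing factors then cut and fold the RNA into the small and large subunits, and many of these genes are known to be expressed with cell growth and division. In macrophages LPS is known to slow division while it switches on inflammatory genes.

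The arrays correlated within groups with a mean r between 0.966 and 0.985, and the lowest values belonged to LPS array 1 (0.966) and CstF-64 array 1 (0.975). All 12 macrophage markers, such as Adgre1, Cd68, Csf1r and Lyz2, were above the background limit on at least 1 array and 11 on all 9. Their summed intensity was 15339 to 20781 in untreated, 24570 to 25781 in LPS and 16173 to 20316 in CstF-64 arrays. The background limit was an intensity of 31.2, the highest reading of 27 bacterial control probe sets. Of the 73 member probe sets, 60 were above it on all 9 arrays and 4 on none. Cstf2, the gene of CstF-64, read 397.8, 363.1 and 372.2 in untreated arrays, 220.5, 248.1 and 195.9 after LPS, and 317.9, 361.5 and 394.5 in CstF-64 arrays on its brighter probe set. None of the arrays with the CstF-64 label read above the highest untreated array (log2 change -0.08, limma adjusted p = 1.00), and the other Cstf2 probe set had a log2 change of -0.36 (limma adjusted p = 0.763). Exact two-sided permutation tests of the 3 CstF-64 against the 3 untreated arrays gave p = 0.4 on the brighter probe set. On the other, where the CstF-64 mean was lower, p was 0.1, the smallest that 3 against 3 arrays allow. Whether these probe sets read the introduced copy is not stated in the sources used, so "CstF-64 arrays" and "CstF-64 group" below mean the arrays so labelled, without a check of the label. Cstf2t, the autosomal relative of Cstf2, read 268 ± 13.5 in untreated, 196 ± 31.4 in LPS and 260 ± 10.5 in CstF-64 arrays (mean ± SD, n = 3).

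The stretches just upstream of 6 members are shown because they hold the sequence features that promoters of this pathway are known for, or lack them. They are RefSeq sequences of the build GRCm38.p6, cover 150 bases up to the annotated start, and were chosen after the array values were known. Capitals mark CACGTG, the E-box bound by Myc and related factors, and CCGGAAG or its reverse complement CTTCCGG, the core bound by ETS-family factors. Nop2 lies at chr6:125131733-125131882 on the plus strand, Nolc1 at chr19:46075697-46075846 on the plus strand and Gar1 at chr3:129831397-129831546 on the minus strand. Polr1c lies at chr17:46248046-46248195 on the minus strand, Ncl at chr1:86359456-86359605 on the minus strand and Nop10 at chr2:112261776-112261925 on the plus strand.
Nop2: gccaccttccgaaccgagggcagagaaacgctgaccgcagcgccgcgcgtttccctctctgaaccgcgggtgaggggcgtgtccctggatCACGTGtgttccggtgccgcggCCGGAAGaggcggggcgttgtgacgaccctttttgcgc
Nolc1: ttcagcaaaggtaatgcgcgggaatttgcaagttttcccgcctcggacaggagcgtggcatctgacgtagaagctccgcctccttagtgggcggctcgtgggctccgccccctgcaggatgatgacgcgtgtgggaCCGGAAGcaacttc
Gar1: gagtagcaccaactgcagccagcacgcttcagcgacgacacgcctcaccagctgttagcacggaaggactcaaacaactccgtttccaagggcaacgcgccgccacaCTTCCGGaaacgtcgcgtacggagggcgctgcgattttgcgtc
Polr1c: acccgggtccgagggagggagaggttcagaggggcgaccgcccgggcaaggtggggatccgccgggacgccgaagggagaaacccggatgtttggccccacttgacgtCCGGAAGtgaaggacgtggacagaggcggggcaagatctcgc
Ncl: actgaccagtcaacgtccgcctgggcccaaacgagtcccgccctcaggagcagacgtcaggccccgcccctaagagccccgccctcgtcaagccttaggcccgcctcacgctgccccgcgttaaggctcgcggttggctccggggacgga
Nop10: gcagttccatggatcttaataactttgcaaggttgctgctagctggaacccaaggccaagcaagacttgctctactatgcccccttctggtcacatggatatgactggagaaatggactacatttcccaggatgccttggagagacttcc

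In these sequences the E-box of Nop2 began at base -60 and its ETS core at -38 from the start, while the ETS cores of Nolc1, Gar1 and Polr1c began at -14, -43 and -42. Ncl and Nop10 held neither run of letters. Windows from 250 bases before to 50 after the start were found for 35 of the 40 members, 44 windows in all. On either strand CCGGAAG stood in 27.3% of them, against 11.6% of 21262 windows of protein-coding genes. CACGTG stood in 9.09% against 7.84%. The median window of a member held 22 CpG pairs and the median protein-coding window 13. Counted by gene, members with a probe set that fell after LPS held CCGGAAG in 4 of 16 (25.0%), and measured members without one in 7 of 17 (41.2%). These are matches of letters, counted for description.

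After 18 h of LPS, 11 of the 38 ribosome biogenesis genes were lower than in untreated cells by their brightest probe set, against 10.4% of all genes. At least 1 probe set was lower in 19 of the 38, a count without a background. The share of all genes under this rule was not counted, and 26 members had 2 or more probe sets. Of the 73 probe sets, 27 fell and 0 rose (limma, adjusted p under 0.05 over all 22626 probe sets), against 10.7% that fell and 5.93% that rose among all probe sets. Of the 73, 68 had a log2 change below 0, against 12604 of all 22626 probe sets. The median log2 change of the member probe sets was -0.61, against -0.04 over all probe sets. The member median was -0.59 with the 6 probe sets that had a whole group at or below the background limit taken at their bound, the other group over the limit. Intensities of the LPS arrays lay wholly below those of the untreated arrays in 48 probe sets and wholly above in 1, against 21.2% and 12.2% of all probe sets. With the brightest probe set of each gene, the one with the highest mean over the 9 arrays, 11 of 38 genes fell and 0 rose, against 10.4% and 6.67% of 12393 genes. Leaving out untreated array 1 or 2 brought the 11 to 7, and leaving out another array gave between 8 and 14. The falls were mostly moderate: 14 of the 73 probe sets fell by at least 2-fold on the fitted scale, log2(intensity + 13), which understates changes of dim probe sets, and 12 with bounds in place of fitted values. Of the 27, Wdr12 1417270_at was never above the background limit. In bulk RNA, fewer cells of a kind and less RNA per cell cannot be told apart, and the deposited values had been scaled to a common level, so a change of all RNA would not show. Of the 27 calls, 15 held in all 14 alternative settings and array omissions run, on Ncl, Nolc1, Nop10, Gar1, Ddx21, Polr1b, Polr1e, Fbl, Wdr43 and Rrp1b. The median stayed below 0 on each scaling tried, with medians of -0.49 under quantile normalization and -0.46 with arrays centred on their medians, which moved the median of all probe sets to 0.12.

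**Figure D1:**
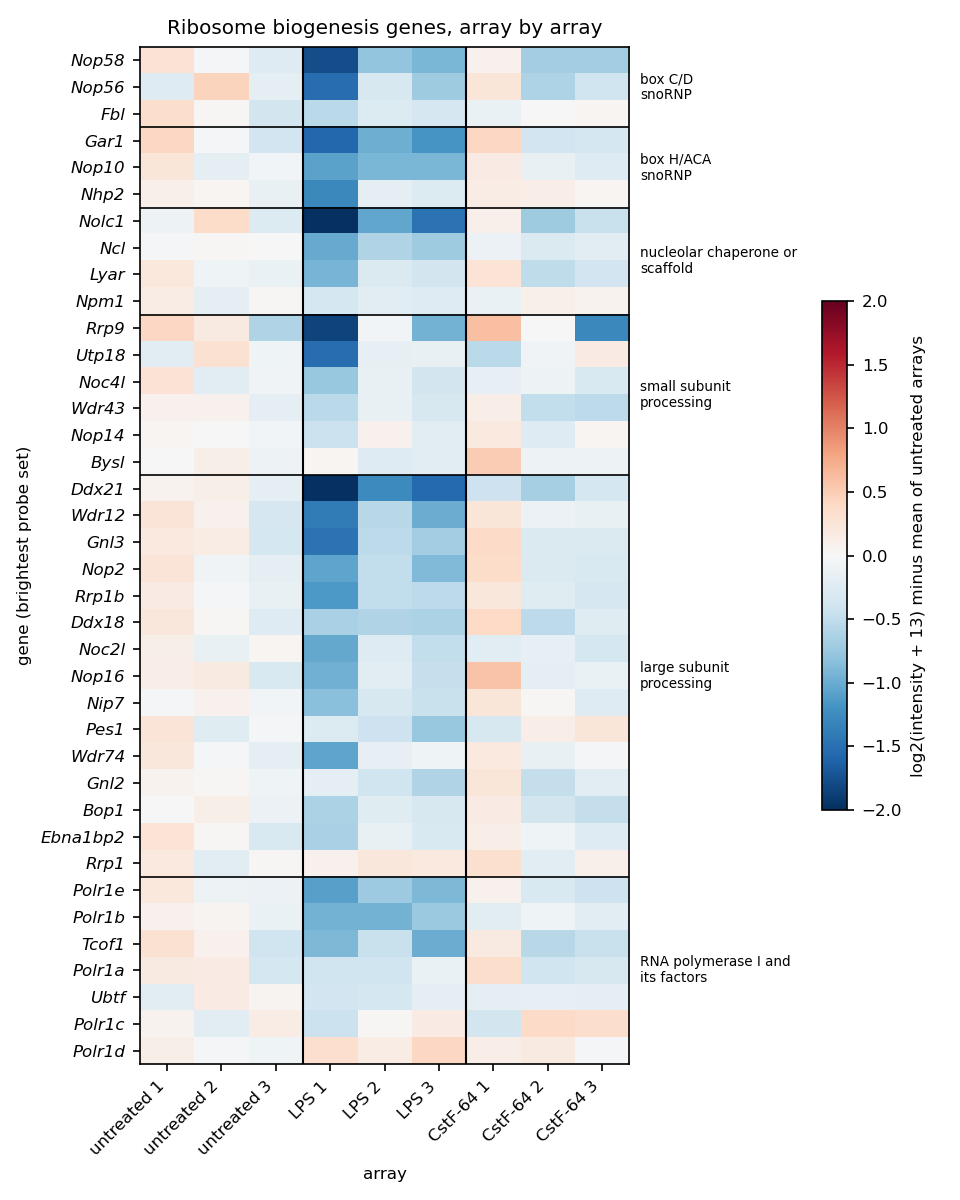
Heat map of the brightest probe set of each of the 38 genes, grouped by role, with 1 column per array; colour gives log2(intensity + 13) minus the mean of the 3 untreated arrays. The LPS columns are blue for most genes, deepest in LPS array 1, while Polr1d and Rrp1 are the 2 rows whose LPS mean lies above the untreated mean.

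Of the core proteins of the box H/ACA snoRNPs, Nop10 and Gar1 fell. Nop10, a small core protein that binds the pseudouridine synthase, read 1309.1, 973 and 1072.5 in untreated arrays, 519.3, 580.4 and 584.8 after LPS and 1251.4, 997.1 and 922.3 in the CstF-64 group. The LPS arrays lay wholly below the other 6, and the log2 change against untreated was -0.97 (SE 0.15, limma adjusted p = 0.00203). The other Nop10 probe set, 1423211_at, went from 668 ± 32.6 to 228 ± 71.4 (log2 change -1.55, limma adjusted p = 0.000728). Gar1, another core protein of the same particle, read 422.2, 307.4 and 238.4 in untreated, 97.7, 153.8 and 131.2 in LPS and 421.5, 237.4 and 242.7 in CstF-64 arrays. Here too the LPS arrays did not overlap the others (log2 change -1.24, SE 0.27, limma adjusted p = 0.0110). Nhp2, the third core protein measured, is an RNA-binding protein. It read 863.3, 829.5 and 726.1 in untreated arrays, 323, 710.3 and 663.5 after LPS, and 891.2, 881.4 and 830.5 in CstF-64 arrays. LPS array 1 was far below the other LPS arrays for Nhp2, and the change did not pass the test (log2 change -0.58, SE 0.25, limma adjusted p = 0.156). By brightest probe set, 2 of the 3 H/ACA genes fell, against 10.4% of all genes, with a median of -0.97.

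Of the box C/D core proteins, Nop58 was the 1 of 3 genes whose brightest probe set fell, against 10.4% of all genes. Nop58, which holds the RNA together with Nop56, read 363.2, 289.4 and 242.9 in untreated arrays, 77.2, 165.1 and 150.8 after LPS, and 312.7, 177 and 177.7 in the CstF-64 group. The LPS arrays lay below all others (log2 change -1.16, SE 0.29, limma adjusted p = 0.0245), and this call was lost without LPS array 1, untreated array 1 or untreated array 2 (limma adjusted p = 0.0578, 0.0878 and 0.0719). It was also lost with arrays centred on their medians (limma adjusted p = 0.0569). Nop56 read 335.5, 550.8 and 353.6 in untreated, 131.4, 320.3 and 242.4 in LPS and 480.3, 257.2 and 303.5 in CstF-64 arrays. Its LPS and untreated arrays did not overlap, but the change missed the threshold (log2 change -0.85, SE 0.33, limma adjusted p = 0.114). Fbl encodes fibrillarin, the methyltransferase of these particles. Its brighter probe set read 655.8, 517.8 and 391.6 in untreated, 348.2, 421.8 and 399.8 in LPS and 463.6, 516.2 and 526.2 in CstF-64 arrays. These groups overlapped (log2 change -0.38, SE 0.17, limma adjusted p = 0.178, and 0.0408 without untreated array 3), whereas its other probe set, 1416685_s_at, fell from 545 ± 181 to 241 ± 27.5 (log2 change -1.10, limma adjusted p = 0.00748).

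Among the nucleolar chaperones and scaffolds, nucleolin and Nolc1 fell on every probe set and nucleophosmin on none. Nucleolin, encoded by Ncl, is an abundant RNA-binding protein of the nucleolus, and its brightest probe set read 2357, 2435.8 and 2367.6 in untreated arrays, 1183.2, 1570 and 1451.6 after LPS, and 2198.1, 1944.6 and 2048.2 in the CstF-64 group. All 3 LPS arrays were far below all untreated arrays, whose SD was 42.8 (log2 change -0.77, SE 0.13, limma adjusted p = 0.00268). The other 3 Ncl probe sets had log2 changes of -1.10, -1.32 and -1.43, with limma adjusted p-values between 0.000382 and 0.0131, and the call on 1456528_x_at was lost without untreated array 2 (adjusted p = 0.0601). On 1415772_at all LPS arrays were at or below the background limit, so the fall from 87.4 ± 8.88 is at least 2.79-fold. Nolc1, a chaperone of snoRNPs also called Nopp140, read 330.3, 463.4 and 292.1 in untreated, 70, 166.6 and 118.8 in LPS and 380.4, 213.1 and 256.9 in CstF-64 arrays. The LPS arrays lay below all others (log2 change -1.56, SE 0.30, limma adjusted p = 0.00646), and both other probe sets also fell. 1450087_a_at had a log2 change of -1.32, and 1428870_at, with all LPS arrays below the background limit, fell at least 1.9-fold (limma adjusted p = 0.000168). Npm1 encodes nucleophosmin, a chaperone of histones and ribosomal proteins. It read 3436.1, 2743.7 and 3144.1 in untreated arrays, 2432.3, 2660.2 and 2592.1 after LPS and 2827.6, 3315.9 and 3257.9 in CstF-64 arrays. The LPS arrays were the lowest, yet the change was small and not called (log2 change -0.27, SE 0.13, limma adjusted p = 0.187). Under quantile normalization alone Npm1 was called lower (log2 change -0.56, limma adjusted p = 0.0153). Lyar, a nucleolar zinc finger protein, had a log2 change of -0.53 and was not called (limma adjusted p = 0.169).

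**Figure D2:**
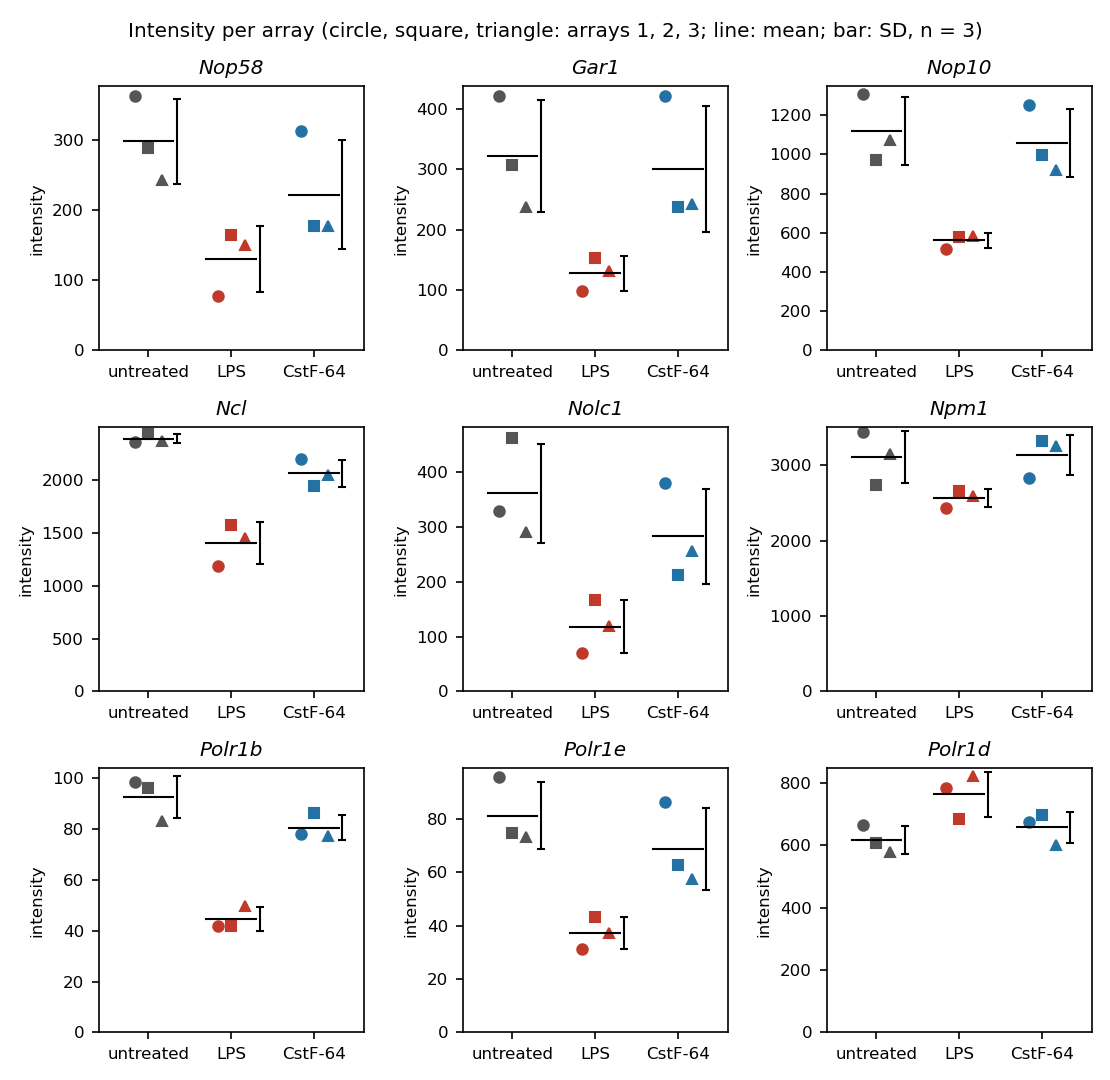
Deposited intensity per array for the brightest probe set of 9 members (circle, square and triangle are arrays 1, 2 and 3 of a group; line, mean; bar, SD, n = 3). LPS arrays lie below all untreated arrays in every panel except that of Polr1d, where they lie above, from 684 to 822 against 578 to 665.

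Of the genes of RNA polymerase I, Polr1b and Polr1e fell by their brightest probe set. Polr1b, one of the subunits that form the active centre, read 98.5, 96.3 and 83.2 in untreated arrays, 41.8, 41.9 and 49.9 after LPS and 78.2, 86.2 and 77.2 in the CstF-64 group. The LPS arrays lay well below the rest (log2 change -0.88, SE 0.15, limma adjusted p = 0.00300). Polr1e, a polymerase I subunit that takes part in initiation, read 95.9, 74.8 and 73.2 in untreated, 31.1, 43.4 and 37.3 in LPS and 86.3, 62.7 and 57.4 in CstF-64 arrays. Its LPS arrays stood near the background limit and below all others (log2 change -0.91, SE 0.19, limma adjusted p = 0.00995). Polr1c and Polr1d, which form a pair shared with RNA polymerase III, were not called. Polr1c read 312.6, 249.8 and 330.1 in untreated, 215.1, 299 and 332.2 in LPS and 225.6, 390.1 and 381.4 in CstF-64 arrays, with wide overlap (log2 change -0.09, SE 0.23, limma adjusted p = 0.865). Polr1d read 665.3, 605.4 and 578.3 in untreated, 781.3, 683.5 and 822.4 in LPS and 672.9, 697.5 and 601.2 in CstF-64 arrays. Its LPS arrays were above all untreated arrays, the 1 such case among the 73 probe sets (log2 change 0.30, SE 0.12, limma adjusted p = 0.115). Polr1d was the 1 member whose probe sets all had a log2 change above 0, and it passed the threshold with arrays centred on their medians (log2 change 0.45, limma adjusted p = 0.0369).

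For the other polymerase I genes the probe sets differed in whether they passed. Polr1a, the largest catalytic subunit, fell on 1 of 3 probe sets, 1460215_at, from 47.3, 65.2 and 51.4 to 14.7, 10.2 and 9.8. These LPS readings are below the background limit, so the fall is at least 1.73-fold (limma adjusted p = 0.0390). Its brightest probe set had a log2 change of -0.31 (limma adjusted p = 0.419). Ubtf, the upstream binding factor that opens ribosomal DNA for transcription, fell at least 1.24-fold on the dimmer of its 2 probe sets, whose LPS arrays were all below the background limit (limma adjusted p = 0.0171). Its brighter probe set was not called (log2 change -0.31, limma adjusted p = 0.139). Tcof1, whose product treacle links polymerase I to rRNA modification, fell on 1 of 3 probe sets (log2 change -0.64, limma adjusted p = 0.0358). All these calls of Polr1a, Ubtf and Tcof1 were lost without untreated array 2 (limma adjusted p = 0.122, 0.0686 and 0.0877), among others. By brightest probe set, 2 of the 7 genes of this role fell, against 10.4% of all genes, and the median log2 change was -0.31.

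Large subunit factors were the widest role, with 15 genes and 28 probe sets. Of these probe sets 8 fell and 0 rose, against 10.7% and 5.93% of all probe sets. One of the 8, Wdr12 1417270_at, read 30.5 or less on every array, below the background limit, and its call was lost in 10 of 13 alternatives. By brightest probe set 4 of the 15 genes fell, against 10.4% of all genes: Ddx21, Wdr12, Nop2 and Rrp1b. Wdr12, which works in a complex with Pes1 and Bop1, read 320.6, 281 and 206.4 in untreated arrays, 92.2, 175.9 and 126.3 after LPS and 317.5, 243.1 and 237.9 in the CstF-64 group, and the LPS arrays lay below all others (log2 change -0.99, SE 0.23, limma adjusted p = 0.0172). Its partners were not called, with log2 changes of -0.48 for Pes1 and -0.40 for Bop1 (limma adjusted p = 0.145 and 0.183). Nop2, an rRNA cytosine methyltransferase, read 289.5, 228.7 and 209.9 in untreated, 108.5, 166.7 and 124.2 in LPS and 313, 193.9 and 192.5 in CstF-64 arrays, again without overlap between LPS and untreated arrays (log2 change -0.81, SE 0.22, limma adjusted p = 0.0315). Rrp1b fell on 2 of 3 probe sets, with log2 changes of -0.72 and -0.96 (limma adjusted p = 0.0432 and 0.00838). Without untreated array 1 the calls of Wdr12, Nop2 and Rrp1b 1452119_at were lost (limma adjusted p = 0.0650, 0.108 and 0.132). Gnl3, which encodes the GTPase nucleostemin, read 565.1, 543 and 382.5 in untreated arrays, 167.2, 335.3 and 296.6 after LPS and 644.2, 398 and 398.2 in the CstF-64 group. LPS and untreated arrays did not overlap, but the change stood just outside the threshold (log2 change -0.90, SE 0.28, limma adjusted p = 0.0519), and it passed without LPS array 2 (adjusted p = 0.0393).

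Further large subunit factors gave smaller differences. Rrp1, the paralogue of Rrp1b, read 646.9, 484.5 and 572.8 in untreated, 599.5, 665.8 and 644.9 in LPS and 708.2, 484 and 609.5 in CstF-64 arrays. The groups overlapped (log2 change 0.17, SE 0.16, limma adjusted p = 0.546), and the other Rrp1 probe set had a log2 change of -0.43 (limma adjusted p = 0.116). The helicase gene Ddx18 fell on 1 of 3 probe sets (log2 change -0.80, limma adjusted p = 0.0267) and the GTPase gene Gnl2 on 1 of 3 (-1.0, limma adjusted p = 0.0126), both lost without untreated array 1 (limma adjusted p = 0.0941 and 0.0514). Noc2l, Nip7, Nop16, Wdr74 and Ebna1bp2 had no called probe set, and their brightest probe sets had log2 changes of -0.59, -0.53, -0.55, -0.43 and -0.37.

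None of the 6 small subunit genes fell by its brightest probe set, against 10.4% of all genes. All 6 log2 changes were below 0 and their median was -0.38. Wdr43 and Noc4l, components of the small subunit processome, each fell on a further probe set. On its brightest probe set Wdr43 read 379.2, 379.9 and 312 in untreated, 241.8, 317.9 and 280.7 in LPS and 389.2, 250.4 and 243.3 in CstF-64 arrays. These ranges overlapped (log2 change -0.34, SE 0.19, limma adjusted p = 0.277), while its 1428389_s_at went from 182 ± 49.5 to 77.8 ± 15.3 (log2 change -1.08, limma adjusted p = 0.00995). Noc4l read 299.2, 208.8 and 230.3 in untreated, 138.4, 219.4 and 186.8 in LPS and 216.6, 224.7 and 195.6 in CstF-64 arrays, with overlap (log2 change -0.42, SE 0.18, limma adjusted p = 0.160). Its 1423827_s_at fell by 0.40 on the log2 scale (limma adjusted p = 0.0487), a call lost without any 1 of the 6 arrays (adjusted p = 0.0520 to 0.140). Rrp9, a protein of the U3 snoRNP, had the widest spread, with 13.3, 79.1 and 36.4 after LPS against 114.3, 95.1 and 49.7 (log2 change -0.95, limma adjusted p = 0.295). Utp18, Nop14 and Bysl had log2 changes of -0.61, -0.18 and -0.15 on their brightest probe sets and were not called.

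**Figure D3:**
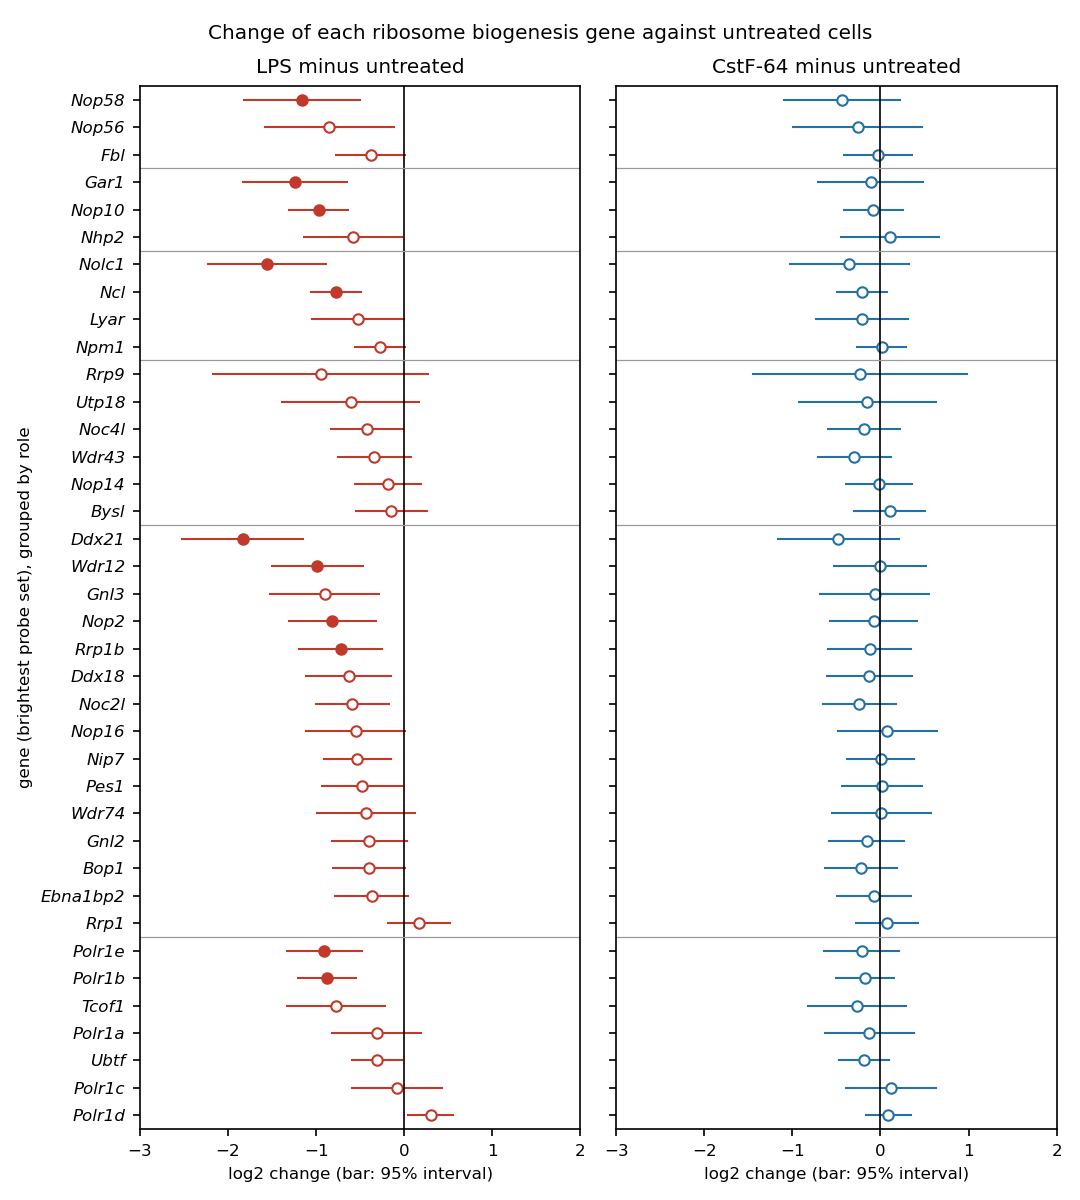
Log2 change of the brightest probe set of each gene with its 95% interval, for LPS (left) and CstF-64 (right) against the same 3 untreated arrays; filled circles passed the limma threshold. On the left 11 of 38 circles are filled, all below 0, and on the right none is, with every interval crossing 0.

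Probe sets of a gene can read different stretches of its transcripts. Ddx21, which encodes a nucleolar RNA helicase, was the 1 of 26 members with several probe sets whose probe sets changed unequally after LPS (limma diffSplice F = 18.9, adjusted p = 0.0140). The background was 5.59% of 4956 genes. Its probe set 1448270_at read 386, 397 and 319.1 in untreated arrays, 46, 144.2 and 116.6 after LPS and 272.7, 225.3 and 282.7 in the CstF-64 group, so the LPS arrays lay far below the rest (log2 change -1.83, SE 0.31, limma adjusted p = 0.00309). On 1448271_a_at the readings were 308.1, 256.2 and 194.9 in untreated, 196.6, 223.9 and 205.8 in LPS and 219.6, 257.1 and 261.6 in CstF-64 arrays. There the LPS arrays lay within the untreated range (log2 change -0.24, SE 0.16, limma adjusted p = 0.382). The inequality was not called without untreated array 2 (F = 12.7, adjusted p = 0.0814) or untreated array 3 (F = 13.7, adjusted p = 0.0614). The sources used do not give the positions of the probes. For Rrp1, Wdr43 and Fbl the same test gave adjusted p-values of 0.194, 0.196 and 0.200. In the comparison of CstF-64 with untreated arrays, 0 of 26 members had unequal probe sets, against 0.0404% of the 4956 genes.

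**Figure D4:**
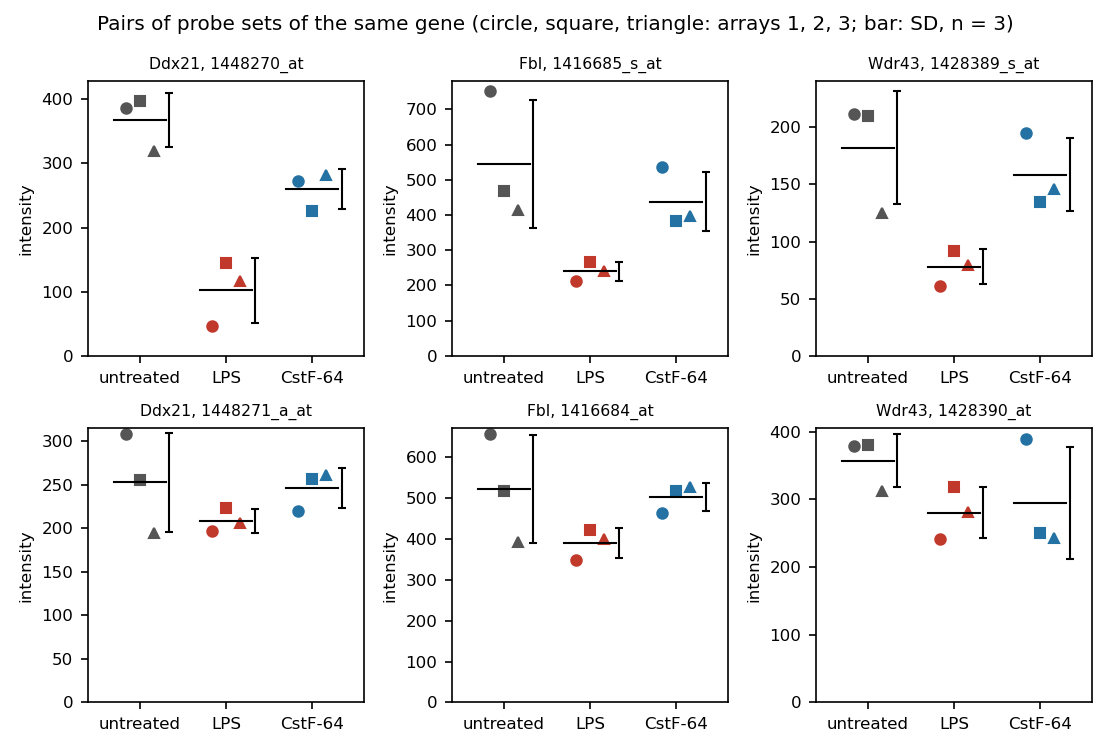
Intensity per array on both probe sets of Ddx21, Fbl and Wdr43 (symbols as arrays 1, 2 and 3; line, mean; bar, SD, n = 3). The upper probe sets drop in all LPS arrays, to 46 to 144.2 for Ddx21, whereas the lower ones overlap with the untreated arrays. Of these genes only Ddx21 passed the test of unequal probe sets (limma diffSplice adjusted p = 0.0140). Fbl and Wdr43 did not (limma diffSplice adjusted p = 0.200 and 0.196).

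In the cells labelled as overexpressing CstF-64, no ribosome biogenesis gene passed the test against untreated cells. Of 73 probe sets 0 were called in either direction (limma), against 0.248% of all probe sets, of which 23 rose and 33 fell. At an unadjusted p under 0.05 limma gave 2 lower and 1 higher, against 740 and 720 of all 22626 probe sets. The median log2 change was -0.13, against 0.0027 over all probe sets. Of the 73, 56 lay below 0, against 11158 of all 22626 probe sets. By brightest probe set 0 of 38 genes were called, against 0.105% higher and 0.169% lower among all genes, and the median was -0.12. All 38 of their 95% intervals held 0. For 34 genes the interval lay within 1 log2 unit either way and for 11 within 0.5, with a median half-width of 0.46 and a widest of 1.22 (Rrp9). With 3 arrays a group, an estimated difference smaller than its half-width does not reach an unadjusted limma p of 0.05. Larger ones could be missed too, since calls used adjusted p-values. In simulated data for this comparison limma called 4% of changes of 0.5 log2 units and 48% of changes of 1. On their brightest probe sets, the genes with the smallest p-values were Ncl (log2 change -0.21, 95% interval -0.49 to 0.07), Wdr43 (-0.29, -0.71 to 0.12), Ddx21 (-0.48, -1.16 to 0.21) and Nop58 (-0.43, -1.09 to 0.22). Their limma adjusted p-values were 0.905, 0.921, 0.927 and 0.934. Over all 73 member probe sets the smallest limma adjusted p was 0.610. The arrays of the group differed among themselves: CstF-64 array 1 was the highest of the 3 in 49 of the 73 probe sets, against 36.8% of all probe sets. Without that array the median was -0.26, and Polr1a 1460215_at was called lower (limma adjusted p = 0.0161). It read 62.9 in array 1 and 6.6 and 12.4 in the others, both below the background limit, so that difference is at least 1.73-fold.

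Set directly against each other, the CstF-64 arrays were above the LPS arrays for part of these genes. Of 73 probe sets, 17 were higher and 0 lower in CstF-64 (limma), against 9.43% and 5.79% of all probe sets, and 16 of the 17 are among those that fell after LPS. By brightest probe set 8 of 38 genes were higher and 0 lower, against 9.51% and 6.38% of all genes. The 8 became 4 without LPS array 3, without CstF-64 array 3 or with arrays centred on their medians, and 5 without LPS array 1 or CstF-64 array 1. Nop10 had a log2 difference of 0.89 (SE 0.15, limma adjusted p = 0.00345), Ncl of 0.56 (SE 0.13, limma adjusted p = 0.0146) and Polr1b of 0.70 (SE 0.15, limma adjusted p = 0.0101). The remaining probe set of the 17, 1416173_at of Pes1, was below the background limit on all 9 arrays. The count was 10 without LPS array 3 or without CstF-64 array 3 and 11 without CstF-64 array 1, and the call of Ncl was lost without CstF-64 array 3 (limma adjusted p = 0.0526). Both comparisons use the same LPS arrays, so the overlap is a description.

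The arrays also differed within groups in a way that these genes shared. LPS array 1 was the lowest of the LPS arrays in 55 of the 73 probe sets, against 31.9% of all probe sets. Untreated array 1 was the highest of its group in 47 (35.7% of all) and untreated array 3 the lowest in 46 (31.5% of all). The mean log2 deviation of member probe sets from their mean over the 9 arrays was 0.38, 0.29 and 0.13 in untreated arrays 1 to 3, -0.60, -0.24 and -0.33 in the LPS arrays and 0.33, 0.01 and 0.04 in the CstF-64 arrays. Every LPS array thus lay below every other array on this mean. Without LPS array 1, 20 probe sets fell after LPS, 1 rose (Polr1d 1451120_at, log2 change 0.63, limma adjusted p = 0.0351), and the median was -0.51. Leaving out untreated array 1 or 2 left 17 and 16 that fell. The 3' to 5' ratio of the actin control probe sets, a measure of RNA integrity, was 1.03 to 1.20 in untreated, 1.11 to 1.18 in LPS and 1.06 to 1.22 in CstF-64 arrays.

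Wider lists of the same pathway, 117 further genes, had a smaller median change. After LPS 22 fell (18.8%) and 3 rose (2.56%) by limma on the brightest probe set, against 10.4% and 6.67% of all genes, with a median log2 change of -0.24. The 22 became 6 without untreated array 2, 9 without untreated array 1, 10 and 12 without LPS array 3 or 1, 9 under quantile normalization and 11 with median centring. In these lists 0 were called in CstF-64 against untreated arrays, where 3 were lower and 3 higher at an unadjusted limma p under 0.05. Of 7 snoRNP assembly factors 3 fell: the helicase genes Ruvbl1 and Ruvbl2, with log2 changes of -1.0 and -0.75 (limma adjusted p = 0.00657 and 0.00887), and Naf1, an assembly factor of H/ACA particles, with -0.79 (limma adjusted p = 0.0162). Of 40 other small subunit factors 6 fell (15%) and 2 rose. Utp20, a processome component, fell by 1.46 on the log2 scale (limma adjusted p = 0.00293), with Tbl3 (-0.84) and Wdr75 (-1.01) the next by p. The kinase gene Riok3 rose, from 319 ± 20.8 to 774 ± 118 (log2 change 1.24, limma adjusted p = 0.000241), as did Dcaf13 (0.39, limma adjusted p = 0.0384). Of 39 other large subunit factors 7 fell (17.9%), among them Pa2g4 (log2 change -0.93), Nle1 (-0.82) and Ppan (-1.86). Eif6, which keeps the large subunit from joining the small one too early, rose from 340 ± 67.1 to 607 ± 144 (log2 change 0.80, limma adjusted p = 0.0172). Of 20 genes of the RNA exosome and RNase MRP 4 fell (20%), including the helicase gene Mtrex (log2 change -1.10), the nuclease gene Dis3 (-0.88) and Exosc5 (-1.18). Of 11 other polymerase I genes 2 fell (18.2%). Taf1c, of the promoter-selectivity factor, fell at least 1.5-fold, with all LPS arrays below the background limit, and Polr2e, a subunit shared by all nuclear RNA polymerases, had a log2 change of -0.73. The calls of Ruvbl1, Ruvbl2, Utp20, Riok3, Pa2g4, Nle1 and Mtrex held in all 14 alternatives and array omissions. Those of Dcaf13, Polr2e and Taf1c were lost without any 1 of the 6 arrays (limma adjusted p = 0.0521 to 0.124), and that of Taf1c also with the replicate number as a block (0.0552). Those of Exosc5, Tbl3 and Wdr75 were lost without untreated array 1 or 2 or LPS array 1 or 3 (0.0521 to 0.129), and that of Dis3 without untreated array 1 or 2 or LPS array 3 (0.0525 to 0.0649). Eif6 lost its call without untreated array 1 or 3 or LPS array 2 or 3 (0.0515 to 0.0636), Naf1 without untreated array 1 or 2 (0.0598 and 0.0612) and Ppan without untreated array 2 (0.0623). Counted over all 14 alternatives, Taf1c lost its call in 9, Polr2e in 8, Wdr75 in 7, Tbl3 in 6 and Naf1 in 3. Exosc5 lost it in 5 and Dis3 in 4, both including quantile normalization (limma adjusted p = 0.0552 and 0.0510).

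Genes that are often regulated together with this pathway gave other counts. Of 75 listed cytosolic ribosomal protein genes 41 were measured. Of these 41, 1 rose and 0 fell after LPS, with a median log2 change of 0.21. The median became -0.08 under quantile normalization, with 1 higher and 0 lower. With arrays centred on their medians it was 0.37, with 4 higher and 0 lower, and the filter on dim probe sets gave 3 higher and 1 lower. Of 47 genes of DNA replication and mitosis 44 fell, with a median of -2.34, and their summed intensity was 25971 to 28421 in untreated, 6348 to 7515 in LPS and 23166 to 28300 in CstF-64 arrays. The part of this fall in the lower levels of ribosome biogenesis genes was not tested. Myc, a transcription factor known to activate many genes of this pathway, moved the opposite way. It read 14.9, 27.6 and 27.4 in untreated arrays, all below the background limit, 471.1, 344.3 and 352 after LPS, and 22.7, 39.1 and 53.1 in the CstF-64 group. After LPS Myc was at least 12.3-fold higher (limma adjusted p = 2.13e-05). An exact two-sided permutation test of the 3 against 3 arrays gave p = 0.1, the smallest that this design allows. In CstF-64 arrays Myc was not called (log2 change 0.48, limma adjusted p = 0.867).

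**Figure D5:**
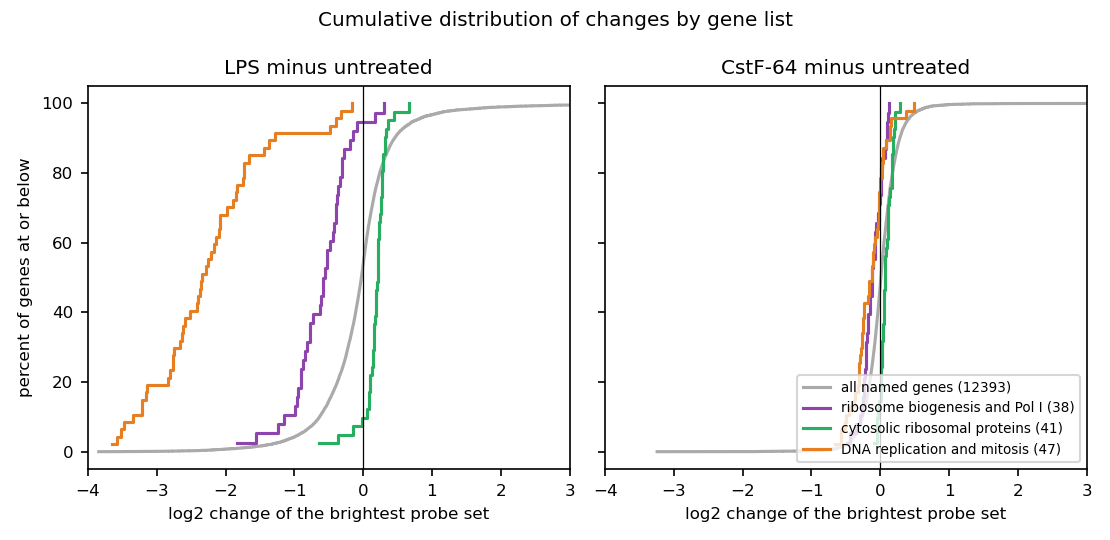
Cumulative share of genes against the log2 change of the brightest probe set, for all 12393 named genes and 3 lists, for LPS (left) and CstF-64 (right). On the left the ribosome biogenesis curve lies to the left of all genes, between the replication and mitosis genes (median -2.34) and the ribosomal proteins (median 0.21); on the right the curves lie close to 0.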

How the data were processed

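The values the authors deposited are linear intensities, 1 for each of 22690 probe sets on each array, of which 64 are controls; per the labels, RNA was isolated with the Ultraspec system. The sources used do not state the software, background correction or normalization. Values as deposited showed a trimmed mean (2% from each end) of 150.05 to 150.06 on every array, so they were kept as deposited. Depth does not apply to arrays, and 3 arrays a group limit the precision. Members, lists and tests were chosen with earlier results of these data known.

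Intensities were transformed to log2(intensity + 13), 13 being 0.25 of the overall median of 50.2. One mean per group was fitted to the 9 arrays with limma 3.58.1 (lmFit, eBayes with intensity trend; R 4.3.3). P-values are two-sided and Benjamini-Hochberg adjusted over 22626 probe sets, with a threshold of 0.05; "fell", "rose" and "called" refer to it. Unequal probe sets of a gene were tested with limma's diffSplice over 4956 genes. Where a whole group lay at or below the background limit of 31.2, a fold is given as "at least", from the brighter group's geometric mean over 31.2. Probe sets were named from the platform annotation with symbols updated to GRCm38.p6, and 26 member probe sets carry a suffix for probes shared among transcripts or genes. Promoter windows are RefSeq's.

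Array by array values were given, on the brightest probe set, for the 6 called members with the smallest adjusted p in each direction after LPS, the 4 with the smallest p in CstF-64, the 2 with the highest mean of each role, and members with unequal probe sets. Of each other list, up to 3 called genes a direction were named, and Cstf2, Cstf2t and Myc always. Gar1, Nop2, Wdr12, Rrp9, Polr1a 1460215_at and further probe sets of named members were added after their values were seen.

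The fit was tested on simulated data with 200 of 22626 probe sets changed: for LPS against untreated, limma called 4% of those changed by 0.5 log2 units, 62% by 1, 92% by 2 and 100% by 3. For CstF-64 against untreated the shares were 4%, 48%, 98% and 100%. All changed probe sets had a mean above the background limit, and the noise was drawn independently for each probe set and array. The shares therefore do not cover dimmer probe sets or shifts shared by many probe sets of an array. Alternatives were pseudocounts of 4 and 52, quantile normalization, median centring, a filter on dim probe sets, the 2 compared groups alone, no intensity trend, the replicate number as a block, the brightest probe set, and leaving out each array. Deviations from group means correlated between -0.06 and 0.16 for arrays with the same replicate number, and between -0.24 and 0.20 for arrays with different numbers. The numbers were not taken as pairs, although these values cannot show that no pairing existed.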

Additional observations from a re-analysis of the deposited data

How the results depend on the processing

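Leaving out 1 array at a time, 16 to 26 member probe sets were lower after LPS in place of 27 and 0 to 1 higher, 10 to 18 were higher in CstF-64 than in LPS arrays in place of 17, 0 to 1 were lower in CstF-64 than in untreated arrays in place of 0, and 0 to 1 member genes had unequal probe sets after LPS in place of 1. Counted by the brightest probe set of each gene, 11 genes were lower after LPS and 8 higher in CstF-64 than in LPS arrays, and leaving out 1 array moved these to between 7 and 14 and between 4 and 9. With arrays centred on their medians 1 member probe set was higher after LPS, 19 were lower, and 10 were higher in CstF-64 than in LPS arrays. Quantile normalization gave 21 member probe sets lower after LPS. The filter on dim probe sets, which tests 14319 probe sets, 68 of them of members, gave 36. The share of all probe sets lower is not given here for quantile normalization or the filter. Testing fewer probe sets also changes the adjustment of p-values, so the 36 is not a stronger result for the members. Median centring moved the median of all probe sets after LPS from -0.04 to 0.12 and turned the split of all calls from 35.7% higher to 60.5% (1341 higher and 2414 lower became 2228 and 1455); under quantile normalization it was 46.2%. In CstF-64 against LPS centring moved the share higher from 62% to 37.3%. The cause was not tested. The replicate block left 26 member probe sets lower after LPS, 16 higher in CstF-64 than in LPS arrays and 0 called in CstF-64 against untreated arrays, while over all probe sets it gave 13 higher and 19 lower in place of 23 and 33. Leaving out an array moved those 23 and 33 to between 8 and 53 and between 10 and 57. No direction of a called member turned in any alternative run. Of the 27 calls after LPS, 15 held in every alternative and 7 were lost in at least 50% of them; of the 17 in CstF-64 against LPS, 8 held and 2 were so lost.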

Other observations

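The arrays carry control probe sets for 18S ribosomal RNA, the product of the pathway described above. The probe set at its 3' end read 2000.9, 2468.6 and 188.1 in untreated arrays, 143.5, 218.8 and 2922.6 in LPS arrays and 192, 963.4 and 330.1 in CstF-64 arrays. The values spread widely within each group and the ranges of the 3 groups overlapped. They therefore give no order of the groups, and whether they follow the amount of 18S ribosomal RNA in the cells was not tested.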
